A study of Arabidopsis thaliana with 12 samples.

Results

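Plant cells that run short of oxygen can no longer pass electrons from NADH to oxygen in their mitochondria, and they then make ATP mainly by glycolysis. Fermentation returns the NADH of glycolysis to NAD+: pyruvate decarboxylase and alcohol dehydrogenase turn pyruvate into ethanol, and lactate dehydrogenase turns it into lactate. Genes of fermentation are known to be strongly induced when Arabidopsis leaves are flooded or placed in low oxygen. The 5 genes described here cover both ends of that route. PDC2 (AT5G54960) encodes a pyruvate decarboxylase and AT4G17260 a lactate dehydrogenase. GAPC2 (AT1G13440) encodes a cytosolic glyceraldehyde-3-phosphate dehydrogenase (GAPDH), which makes the NADH that fermentation uses, and TPI (AT3G55440) encodes the cytosolic triosephosphate isomerase, which feeds it. PPDK (AT4G15530) encodes pyruvate,orthophosphate dikinase, which can turn pyruvate back into phosphoenolpyruvate. They were picked by name, with earlier results of these data known, as fermentation and cytosolic glycolysis enzymes that the annotation of the array names. They are 5 of the 13350 genes that have a probe set naming no other gene. Each is read by 1 such probe set, a group of short oligonucleotides to 1 transcript. All 5 probe sets passed the filter on low signal, and none lay under an array's low-signal limit, its 40th percentile, on any of the 12 arrays. PDC2 came close to it on several ago1-27 arrays. It read 91.7 against a limit of 89.1 on ago1-27_submerged replicate 1. On ago1-27_dark it read 100.1 against 85.2 on replicate 2 and 100.9 against 92.3 on replicate 3.

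The arrays held RNA from leaves of Arabidopsis thaliana plants aged 4 weeks, hybridised to ATH1 arrays. The 4 groups were submerged ago1-27 plants (ago1-27_submerged), ago1-27 plants kept in darkness in air (ago1-27_dark), submerged wild-type Col-0 plants (WT_submerged) and Col-0 plants kept in darkness in air (WT_dark). Submergence lasted 12 h, with the water surface 10 cm over the leaves and the lights off. ago1-27 carries a weak allele of ARGONAUTE1, the protein that microRNAs guide to their target transcripts, in the Col-0 background. All 4 groups were thus in darkness. Each group had 3 arrays, labelled biological replicates, and each array pooled 4 plants. The design asks how submergence changes leaf transcripts in the mutant and in wild type. Values are signal intensities scaled to a common mean on every array, the error of a mean signal is the SD over 3 arrays, and that of a log2 change is the standard error from the limma fit to all 12 arrays. A change counts as called at a Benjamini-Hochberg adjusted p under 0.05 over all 14812 probe sets tested.

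The group names below are those of the labels, and the readouts that could check them parted the arrays along different lines. AGO1 has no probe set named here, so the mutation could not be checked on its own transcript. PDC2 and AT4G17260, which low oxygen is known to induce, split along the labelled genotypes, and submerged and dark arrays of a labelled genotype overlapped. The control probe set U12639 parted them by labelled treatment: it read 1.74 to 44.7 on the 6 arrays labelled submerged, against 24471 to 29779 on the 6 labelled dark. An exchange of the labels ago1-27_submerged and WT_dark was not tested, and the files used here cannot settle it. With it, PDC2 and AT4G17260 would part the arrays by treatment, higher on submerged arrays, and U12639 would part them by genotype. Under such an exchange both submergence comparisons would become genotype comparisons and the reverse, ago1-27_submerged against WT_dark would change sign, and ago1-27_dark against WT_submerged and the interaction would keep their values. Every direction below rests on the labels as given, and each array is named by its label. For that reason all 6 pairs of groups are given, including both pairs that differ in genotype and treatment together.

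Array quality and tissue markers moved with the labels too. A principal component with 68.2% of the variance split the labelled genotypes. On the next, with 11.1%, ago1-27_submerged replicate 3 lay at -51.7 against -6.31 and -10.5 for its group, and WT_dark replicate 1 at 0.37 against 28.1 and 27.9. Of 15 leaf markers 4 are named, LHCB4.2, PSAN, PSBY and RCA, and their summed signal was 74160 to 93071 on ago1-27_submerged arrays, 76367 to 85155 on ago1-27_dark, 44590 to 51040 on WT_submerged and 30647 to 39305 on WT_dark arrays. Of 9 root markers 2 are named: EXPA7 lay under the low-signal limit on all 12 arrays, and the summed signal was 269 to 1404 on ago1-27_submerged, 111 to 152 on ago1-27_dark, 84.3 to 216 on WT_submerged and 30.5 to 119 on WT_dark arrays. The highest sum was that of ago1-27_submerged replicate 3, where PYK10 read 1372. The only named flower marker, AT5G07230, lay under the limit on all 12 arrays. The part of these differences in the results below was not tested. In whole leaves, fewer cells of a type and less RNA per cell cannot be told apart.

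PDC2, the enzyme at the branch from pyruvate to ethanol, gave a signal of 91.7, 128 and 236 on the ago1-27_submerged arrays. On the ago1-27_dark arrays it gave 140.02, 100.1 and 100.9. The WT_submerged arrays read 2231, 3304 and 2600.3, and the WT_dark arrays 3357, 2376 and 2781. All 6 arrays labelled ago1-27 lay far below all 6 labelled WT, while submerged and dark arrays of the same labelled genotype overlapped. Means were 152 ± 74.8 in ago1-27_submerged and 114 ± 22.8 in ago1-27_dark, 2712 ± 545 in WT_submerged and 2838 ± 493 in WT_dark.

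PDC2 was 19.1-fold lower in ago1-27_submerged than in WT_submerged, a log2 change of -4.25 ± 0.29 (limma, adjusted p = 6.9e-07). It was 25.03-fold lower in ago1-27_dark than in WT_dark, at -4.65 ± 0.29 (adjusted p = 2.5e-07). Both folds rest on low ago1-27 signals, several of them near the low-signal limit. Among the 14812 probe sets tested, 125 had a lower change than PDC2 in the first comparison and 82 in the second. The crossed pairs gave -4.32 for ago1-27_submerged against WT_dark and -4.58 for ago1-27_dark against WT_submerged. Submergence gave no call: 0.32 in ago1-27 (95% interval -0.31 to 0.95, adjusted p = 0.53) and -0.07 in WT (-0.70 to 0.56, adjusted p = 0.92). The ago1-27 value rests on the array that lay apart, and without ago1-27_submerged replicate 3 it was -0.050. The upper end of both intervals lies under 1 on the log2 scale.

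AT4G17260, the lactate dehydrogenase, gave 249, 229 and 761 on the ago1-27_submerged arrays. On the ago1-27_dark arrays it gave 341, 169.5 and 239. The WT_submerged arrays read 2154, 2511 and 2518, and the WT_dark arrays 1646, 3419.9 and 1614. The split again followed the labelled genotype, and the highest ago1-27 array, 761, was the replicate that lay apart. Spread was widest in ago1-27_submerged, at 413 ± 301, and in WT_dark, at 2227 ± 1033. The other groups gave 250.1 ± 86.4 in ago1-27_dark and 2395 ± 208 in WT_submerged.

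The lactate dehydrogenase was 6.80-fold lower in ago1-27_submerged than in WT_submerged, at -2.77 ± 0.42 on the log2 scale (limma, adjusted p = 0.00026). In the dark pair it was 8.69-fold lower, at -3.12 ± 0.42 (adjusted p = 6.3e-05). The crossed pairs gave -2.57 for ago1-27_submerged against WT_dark and -3.31 for ago1-27_dark against WT_submerged. Without ago1-27_submerged replicate 3 and WT_dark replicate 1 the change was -3.32 in the submerged pair and -3.29 in the dark pair. Submergence gave 0.55 in ago1-27 (95% interval -0.37 to 1.46, adjusted p = 0.45) and 0.19 in WT (-0.72 to 1.11, adjusted p = 0.83). Leaving out both arrays brought these to -0.0095 and 0.024. These intervals are wider than those of PDC2, and a rise of up to 1.46 on the log2 scale in ago1-27 lies inside them.

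**Figure D1:**
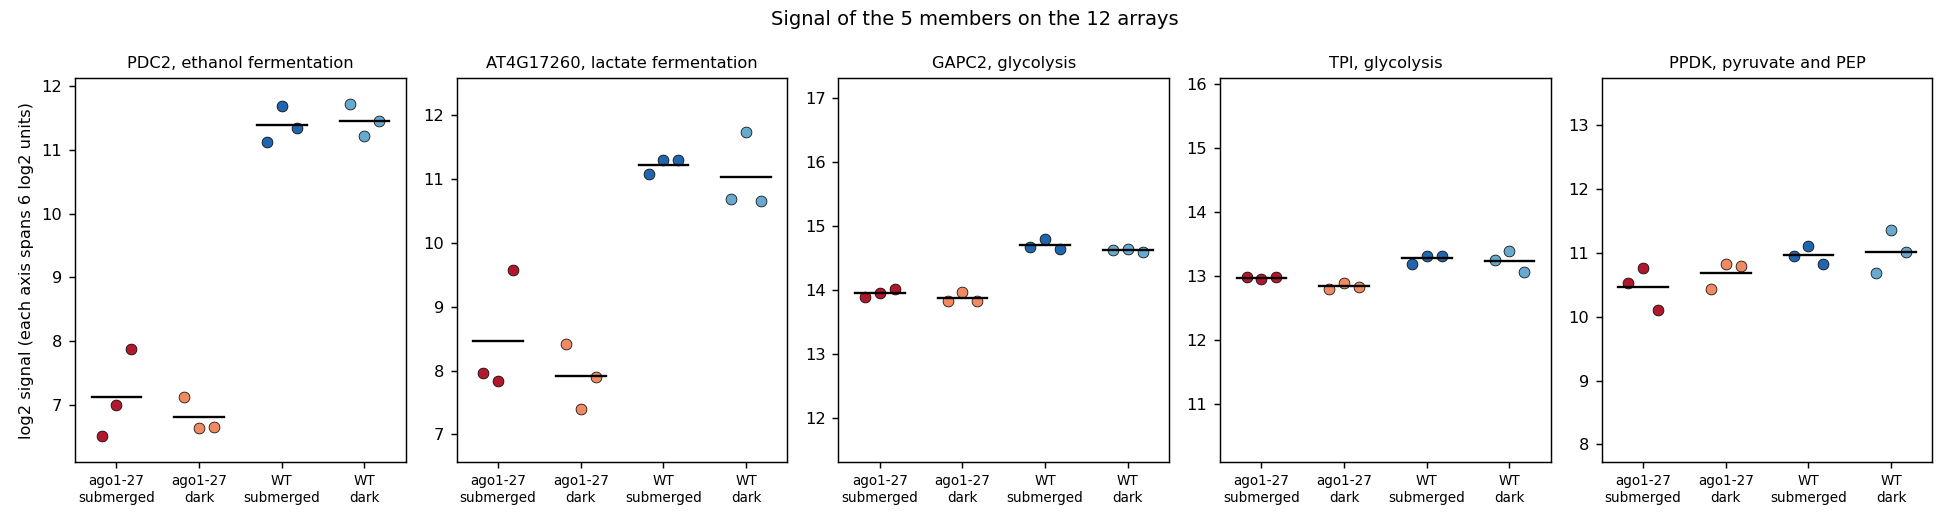
log2 signal of each of the 5 genes on each of the 12 arrays, with 1 panel per gene whose axis spans 6 log2 units, groups by label on the horizontal axis and bars at the group means. On the linear scale PDC2 reads 91.7 to 236 on the ago1-27 arrays against 2231 to 3357 on the WT arrays, while PPDK reads 1101 to 1807 against 1641 to 2615 and overlaps.

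GAPC2, which makes NADH in cytosolic glycolysis, gave 15216, 15797 and 16561 on the ago1-27_submerged arrays and 14541, 15972 and 14602 on the ago1-27_dark arrays. The WT_submerged arrays read 26032, 28415 and 25415, and the WT_dark arrays 25315, 25623 and 24867. The labelled genotypes did not overlap, and replicates were tight, with means of 15858 ± 674 in ago1-27_submerged, 15038 ± 809 in ago1-27_dark, 26621 ± 1584 in WT_submerged and 25268 ± 380.4 in WT_dark.

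GAPC2 was 1.68-fold lower in ago1-27 than in WT in both treatments. The log2 change was -0.75 ± 0.09 in the submerged pair (limma, adjusted p = 4.1e-05) and -0.75 ± 0.09 in the dark pair (adjusted p = 2.4e-05). The crossed pairs gave -0.67 for ago1-27_submerged against WT_dark and -0.82 for ago1-27_dark against WT_submerged. Submergence moved it by 0.08 in ago1-27 (95% interval -0.11 to 0.27) and by 0.07 in WT (-0.12 to 0.27), neither of them called. GAPC1 is a close copy of GAPC2 with no probe set named here, and whether the GAPC2 probes also read it cannot be told from the files.

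The array carries 3 control probe sets for GAPDH transcripts, placed at the 3' end, the middle and the 5' end, which the annotation used here does not tie to GAPC1 or GAPC2. They also read lower in ago1-27 than in WT, but less evenly. In the dark pair the log2 differences were -0.72 at the 3' end, -1.04 in the middle and -1.16 at the 5' end. In the submerged pair they were -0.03, -0.40 and -0.63, and the 3' values overlapped, at 6190 ± 459 in ago1-27_submerged against 6290 ± 93.2 in WT_submerged. With submergence the 3' and middle controls moved opposite ways in the labelled genotypes, without overlap: 0.30 and 0.38 in ago1-27, and -0.39 and -0.25 in WT. The 5' control gave 0.27 in ago1-27, where its arrays overlapped, and -0.26 in WT. GAPC2 was at 0.08 and 0.07 in these comparisons. The controls were left out of the fit, so these differences carry no test. The ratio of 3' to 5' GAPDH signal, a measure of how complete the labelled RNA is, was 1.69 to 2.24 on ago1-27 arrays against 1.23 to 1.52 on WT arrays. The actin ratio was 11.4 ± 0.989 in ago1-27_submerged, 8.02 ± 0.860 in ago1-27_dark, 6.30 ± 0.630 in WT_submerged and 7.95 ± 0.477 in WT_dark. The ubiquitin ratio was 3.27 ± 0.328 in ago1-27_submerged, 2.72 ± 0.197 in ago1-27_dark, 2.83 ± 0.204 in WT_submerged and 2.69 ± 0.129 in WT_dark. The GAPDH ratio thus followed the labelled genotype in both treatments, while the actin and ubiquitin ratios overlapped between ago1-27_dark and WT_dark. In the submerged pair the ubiquitin ratios overlapped, and the actin ratios lay apart, at 10.7 to 12.5 in ago1-27 against 5.57 to 6.68 in WT. The 25S RNA control read 8322 ± 1698 in ago1-27_submerged and 15555 ± 840 in ago1-27_dark. It read 17395 ± 1257 in WT_submerged and 19971 ± 1524 in WT_dark. The part of RNA quality in the GAPC2 change was not tested.

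**Figure D2:**
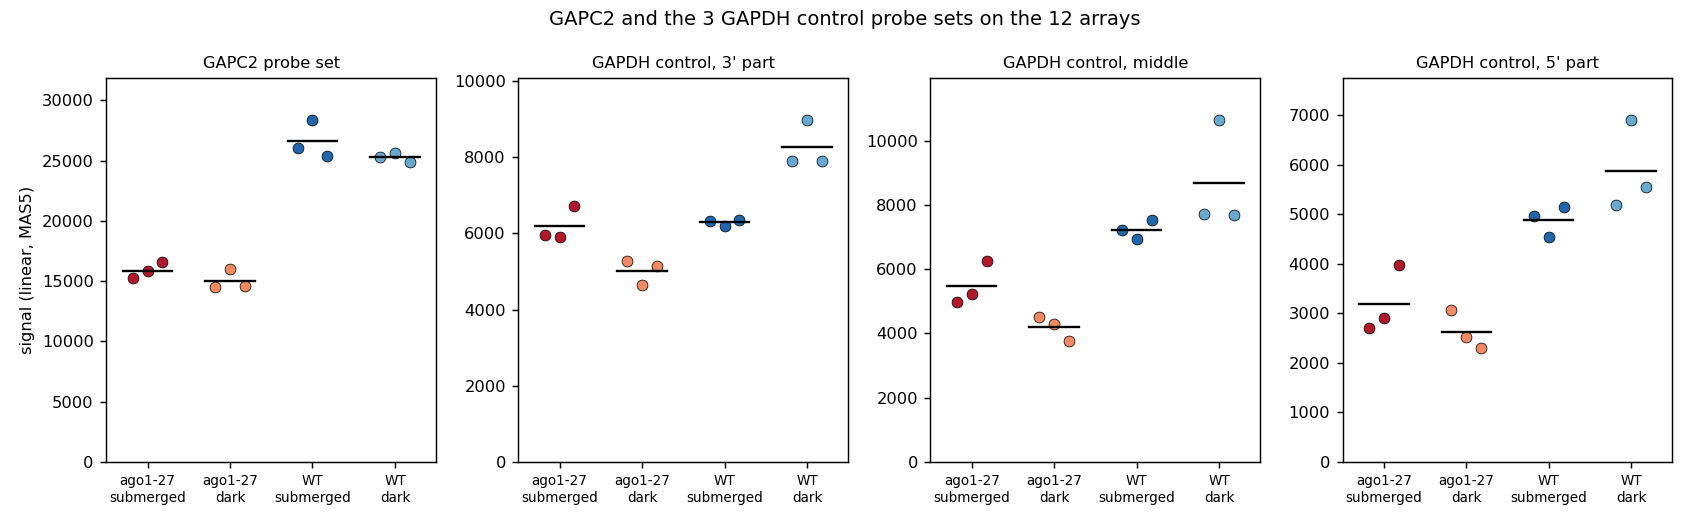
Signal on a linear axis of GAPC2 and the 3 GAPDH control probe sets on each of the 12 arrays, with groups by label on the horizontal axis and bars at the group means. GAPC2 parts the labelled genotypes without overlap, while the 3' control overlaps between ago1-27_submerged and WT_submerged, whose means are 6190 and 6290.

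TPI makes the substrate of GAPC2, and its differences were the smallest of those called. It gave 8073, 7967 and 8141 on the ago1-27_submerged arrays and 7135, 7593 and 7272 on the ago1-27_dark arrays. The WT_submerged arrays read 9349.9, 10209 and 10229.8, and the WT_dark arrays 9719, 10717 and 8519.8. Every ago1-27 array lay below every WT array, with the closest 2 values at 8141 and 8519.8. In ago1-27 the 3 submerged arrays also lay above the 3 dark arrays, at 8060.1 ± 87.8 against 7333 ± 235.

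TPI was 1.23-fold lower in ago1-27_submerged than in WT_submerged, at -0.30 ± 0.10 on the log2 scale (limma, adjusted p = 0.03). In the dark pair it was 1.31-fold lower, at -0.39 ± 0.10 (adjusted p = 0.0063). The crossed pairs gave -0.25 for ago1-27_submerged against WT_dark (adjusted p = 0.048) and -0.44 for ago1-27_dark against WT_submerged (adjusted p = 0.0041). The first of these calls ended when any 1 of 11 arrays was left out. The call in the submerged pair was also close to the threshold: it ended with no filter (adjusted p = 0.08), with no intensity trend (0.06), with the 6 arrays of the pair alone (0.057), and without WT_submerged replicate 2 or 3 or ago1-27_submerged replicate 1 or 2. The submergence change was 0.14 ± 0.10 in ago1-27 (adjusted p = 0.43) and 0.05 ± 0.10 in WT (adjusted p = 0.84), neither of them called. The arrays of the ago1-27 pair did not overlap, which held in this direction for 18.4% of all probe sets tested.

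PPDK works at the pyruvate end of the route in the other direction from pyruvate kinase. It gave 1470.3, 1735 and 1101 on the ago1-27_submerged arrays and 1376, 1807 and 1782 on the ago1-27_dark arrays. The WT_submerged arrays read 1966, 2214 and 1822, and the WT_dark arrays 1641, 2615 and 2059. The labelled genotypes overlapped in the dark pair and did not overlap in the submerged pair. The change was -0.50 ± 0.20 on the log2 scale in the submerged pair (limma, adjusted p = 0.057) and -0.33 ± 0.20 in the dark pair (adjusted p = 0.18), neither called. Only ago1-27_submerged against WT_dark passed, at -0.55 ± 0.20 (adjusted p = 0.03). Without both arrays that lay apart the dark pair gave -0.50 (adjusted p = 0.015) and the submerged pair -0.32 (adjusted p = 0.11). Submergence gave -0.22 in ago1-27 and -0.05 in WT, and neither was called.

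Counted together, no member was called with submergence in ago1-27, where 8.38% of all probe sets tested were called, or in WT, where 7.08% were (limma). At an unadjusted p under 0.05 the count was also 0 of 5 in both. The members were chosen with earlier results of these data known, so all counts over them are a description only. In the submerged genotype pair 4 of 5 members were called lower, against 17.8% of all probe sets, and in the dark pair the same 4 of 5, against 20.8%. PPDK was the exception in both, and the TPI call in the submerged pair is among those that ended under other settings. In ago1-27_submerged against WT_dark all 5 were called lower, against 21.5%, and in ago1-27_dark against WT_submerged 4 of 5, against 19.7%. Arrays that did not overlap at all, with ago1-27 lower, were found for 5 of 5 members in the submerged pair, against 22.1% of all probe sets, and for 4 of 5 in the dark pair, against 24.4%. The same count was 4 of 5 in ago1-27_submerged against WT_dark, against 22.4%, and 5 of 5 in ago1-27_dark against WT_submerged, against 26.9%. Across all probe sets the shift went the other way: the median log2 change was 0.17 in the submerged genotype pair and 0.17 in the dark pair, against -0.75 and -0.75 over the members. For the submergence comparisons the median over the members was 0.14 in ago1-27 and 0.05 in WT, against 0.06 and 0.07 over all probe sets.

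The interaction, the submergence change in ago1-27 minus that in WT, was called for no member, at an unadjusted p under 0.05 for 0 of 5 too, and was called for 0.284% of all probe sets (limma). It was 0.39 ± 0.41 on the log2 scale for PDC2, 0.35 ± 0.60 for AT4G17260, 0.00 ± 0.13 for GAPC2, 0.09 ± 0.14 for TPI and -0.17 ± 0.28 for PPDK. The interval was narrow for GAPC2, from -0.27 to 0.27, and wide for AT4G17260, from -0.94 to 1.65.

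**Figure D3:**
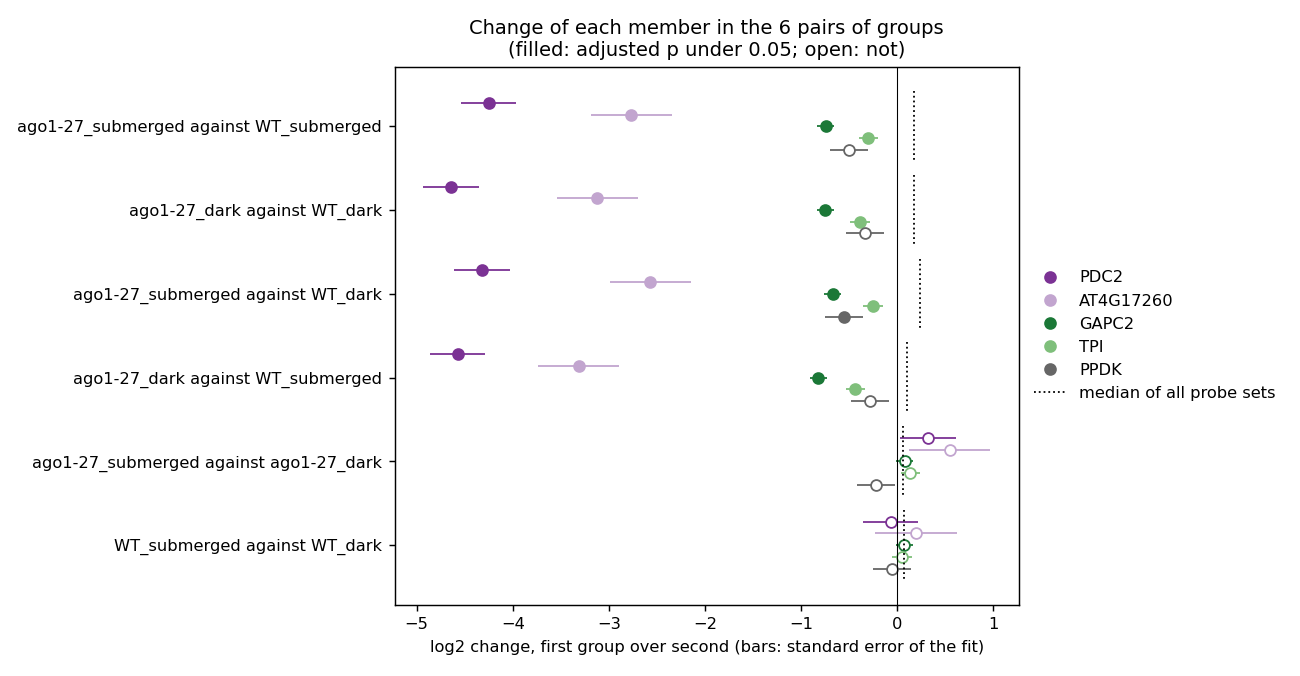
log2 change of each of the 5 genes (horizontal axis) in the 6 pairs of groups (vertical axis), with bars for the standard error of the limma fit, filled points for called changes and dotted lines at the median of all probe sets. PDC2 lies between -4.65 and -4.25 in the 4 pairs that differ in labelled genotype, GAPC2 between -0.82 and -0.67, and no point is filled in either submergence comparison.

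The fermentation genes were then set against the glycolysis genes within each array, by taking the difference of their log2 changes, which multiplying a whole array by a factor cannot alter. Between labelled genotypes the fermentation genes lay further down than the glycolysis genes in every pair. The log2 change of PDC2 minus that of GAPC2 was -3.51 ± 0.32 in the submerged pair (95% interval -4.25 to -2.77) and -3.90 ± 0.32 in the dark pair (-4.63 to -3.16). Against TPI the PDC2 differences were -3.95 ± 0.35 and -4.25 ± 0.35. For AT4G17260 the differences were -2.02 ± 0.51 and -2.37 ± 0.51 against GAPC2, and -2.47 ± 0.49 and -2.73 ± 0.49 against TPI. In all 16 such differences across the 4 pairs that differ in labelled genotype, the arrays of one group lay wholly apart from those of the other. Each gave an exact two-sided permutation p = 0.1, the smallest that 3 against 3 arrays allow, and 0.15 after adjustment over the 24 differences computed, so this design cannot pass the threshold for a single difference.

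With submergence the same differences were small and the arrays overlapped in all 8 of them. PDC2 minus GAPC2 was 0.25 ± 0.32 in ago1-27 (95% interval -0.49 to 0.99) and -0.14 ± 0.32 in WT (-0.88 to 0.60). AT4G17260 minus GAPC2 was 0.47 ± 0.51 in ago1-27 (-0.70 to 1.64) and 0.12 ± 0.51 in WT (-1.05 to 1.29). Against TPI, PDC2 gave 0.19 and -0.12 and AT4G17260 gave 0.41 and 0.15. The exact permutation p was between 0.5 and 0.8 in these 8. A difference of PDC2 over GAPC2 of more than 0.99 on the log2 scale with submergence lies outside both intervals.

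Other genes of the route came from lists written from general knowledge. Of 9 fermentation genes only PDC2 and AT4G17260 have a probe set of their own. Of 37 cytosolic glycolysis genes 12 do: GAPC2, TPI, 9 others that were tested, and the pyruvate kinase AT4G26390, which failed the filter on low signal. With submergence 3 of the 9 others were called higher and 0 lower in ago1-27, where 4.19% of all probe sets were called higher, and 1 higher and 0 lower in WT, where 4.71% were. Their median log2 changes were 0.64 and 0.24, against 0.06 and 0.07 over all probe sets. Without both arrays that lay apart the median in ago1-27 was 0.40, with 3 higher and 0 lower, and that in WT 0.32, with 2 higher and 1 lower. The shares of 4.19% and 4.71% are those with all 12 arrays. Without both arrays, submergence in WT called 3872 of the 14812 probe sets in either direction, against 1048 with all 12. ENOC, an enolase, was called in both: it rose by 0.83 in ago1-27 (adjusted p = 0.0092) and by 0.70 in WT (limma, adjusted p = 0.02). AT1G20950, the alpha subunit of the pyrophosphate-dependent phosphofructokinase, rose by 1.03 in ago1-27 (adjusted p = 0.012), and the pyruvate kinase AT5G56350 by 0.64 (adjusted p = 0.046). GAPC2 and TPI, at 0.08 and 0.14, passed in neither genotype.

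Between labelled genotypes the 9 others did not move one way. All 3 pyruvate kinases tested were called lower in both genotype pairs. AT5G08570 was at -1.27 in the submerged pair and -1.42 in the dark pair, AT5G63680 at -1.13 and -2.14, and AT5G56350 at -1.15 and -1.95. ALDH11A3, the non-phosphorylating GAPDH that yields NADPH instead of NADH, moved opposite to GAPC2, at 1.20 and 2.23. In the submerged pair ENOC (0.45) and the phosphofructokinase subunits AT1G20950 (0.93) and AT1G12000 (1.07) were also called higher. The counts were thus 4 higher, 3 lower and 2 not called in the submerged pair, and 1, 3 and 5 in the dark pair. Over all probe sets the share called higher was 26.7% in the submerged pair and 32.1% in the dark pair, and the share called lower was 17.8% and 20.8%. Without both arrays that lay apart the counts were 3 higher and 3 lower in the submerged pair and 2 higher and 3 lower in the dark pair. The other phosphofructokinase alpha subunit, AT1G76550, was at -0.04 in the submerged pair and -0.45 in the dark pair, neither called, and in the dark pair AT1G20950 (0.10) and AT1G12000 (0.33) were not called. The glucose-6-phosphate isomerase AT5G42740 was called in none of the 6 pairs. Medians of the 9 were -0.03 and -0.06, against 0.17 and 0.17 over all probe sets.

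**Figure D4:**
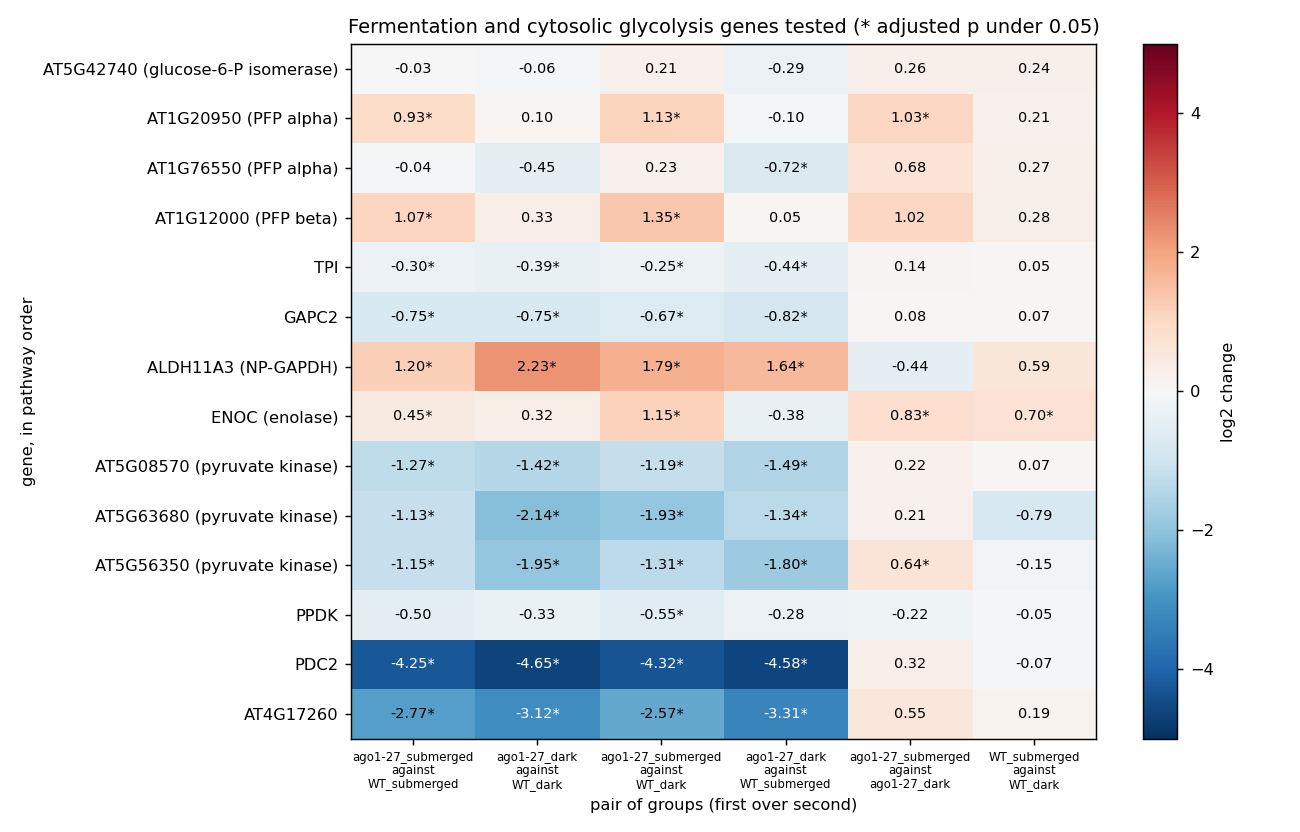
Heat map of the log2 change of the tested cytosolic glycolysis genes, PPDK and the fermentation genes (vertical axis, in pathway order) in the 6 pairs of groups (horizontal axis), with stars on called changes. In both genotype pairs the 3 pyruvate kinases lie below 0 with PDC2, AT4G17260 and GAPC2, while ALDH11A3 lies above it at 1.20 and 2.23.

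Genes with the most similar profile to each member were found by the root mean square distance between centred log2 signals over the 12 arrays, among 8028 probe sets of other single genes. For PDC2 they were AT4G31020 (distance 0.34), AT1G20270 (0.35) and AT3G23170 (0.44), beside an SD of 2.35 for PDC2 itself. AT4G31020 averaged 117 in ago1-27_submerged, 87.3 in ago1-27_dark, 1457 in WT_submerged and 1647 in WT_dark. For AT4G17260, with an SD of 1.64, they were AT4G36010 (0.32), AT5G41670 (0.34) and AT1G28760 (0.37). No probe set came within 0.3 of either fermentation gene, while 753 did for GAPC2, 1611 for TPI and 600 for PPDK. The glycolysis profiles are flat, with an SD of 0.40 for GAPC2 and 0.20 for TPI, so a distance under 0.3 marks little there. The nearest to GAPC2 was AT3G12620 (0.08), to TPI AT4G08220 (0.08), and to PPDK AT2G24860 (0.13).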

How the data were processed

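The authors deposited signal intensities on a linear scale, and MAS5 is the tool in the submitters' processing notes, with its version not stated there. The intensities have a 2% trimmed mean of 500 on every array. All 12 columns were mapped to samples by label. Of 22810 probe sets 64 controls were left out of the tests. Of the others, 13513 name 1 gene, 503 several and 8730 none in the annotation table used here. A probe set was tested if its signal exceeded the 40th percentile of the array on at least 3 arrays, which left 14812. Means of the 4 groups were estimated on log2 signals by limma 3.58.1 (R 4.3.3). Variances were moderated along a trend in intensity, with 8 residual degrees of freedom and 4.61 prior ones, and 7 contrasts were tested with Benjamini-Hochberg adjustment. The procedure was tested on simulated data with independent errors and a change added to a small set of probe sets in a single group. That setting lacks the wide genotype split of these arrays, so it does not check the calls given here. The number of arrays limits the precision. Alternatives changed the filter, scaling, floor, pseudocount, variance model and arrays used.

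The named genes were the 5 members, the counts and strongest calls of each list, and the 3 nearest profiles. Members and lists were chosen with earlier results of these data known. Promoter and protein sequences were not used here. Nothing gives the date or batch of an array. Same-numbered arrays of different groups did not all deviate together: 8 of 18 pairs correlated above 0.1 (range -0.28 to 0.35), so numbers were not taken as pairs. Arrays with different numbers were not compared in this way, so a shared effect of the replicate number was not tested by it.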

Additional observations from a re-analysis of the deposited data

How the results depend on the processing

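The calls on PDC2, AT4G17260 and GAPC2 in the 4 pairs that differ in labelled genotype held under every alternative run, as did those on TPI in ago1-27_dark against WT_dark and against WT_submerged. Of 800 recomputed member changes, 733 kept direction and call, 31 lost the call, 7 gained it and 29 changed sign. For TPI in ago1-27_submerged against WT_submerged (-0.30) the adjusted p was 0.08 with no filter, 0.06 with no intensity trend and 0.057 with the 6 arrays of the pair. For TPI in ago1-27_submerged against WT_dark (-0.25) it was 0.12 with no filter, 0.052 with a floor at the 25th percentile, 0.05 with a pseudocount of 32, 0.086 with no trend, 0.052 with a robust trend, 0.15 with 6 arrays, 0.056 with a replicate block and 0.079 without both arrays that lay apart. For PPDK the call in ago1-27_submerged against WT_dark (-0.55) was lost with 6 arrays (adjusted p = 0.08). PPDK was called in ago1-27_submerged against WT_submerged with a replicate block (-0.50, adjusted p = 0.027) and with median centring (-0.71, adjusted p = 0.047), and in the dark pair without both arrays (-0.50, adjusted p = 0.015). Apart from this PPDK call and the TPI call given above, the replicate block changed no member call. Changes that turned sign had not been called. With median centring the submergence change was -0.074 for GAPC2 and -0.015 for TPI in ago1-27, -0.061 and -0.088 in WT, and the GAPC2 interaction -0.014 (-0.067 with quantile normalization). Without both arrays PDC2 gave -0.050 and AT4G17260 -0.0095 in ago1-27, PDC2 0.058 in WT, and the interactions were -0.11 for PDC2, -0.033 for AT4G17260, -0.030 for GAPC2 and 0.18 for PPDK. Leaving out each of the 12 arrays in turn gave, with submergence, -0.050 to 0.63 for PDC2 and -0.0095 to 0.86 for AT4G17260 in ago1-27, and -0.22 to 0.061 for PDC2, -0.041 to 0.12 for TPI and -0.22 to 0.12 for PPDK in WT. It gave -0.34 to -0.28 for TPI and -0.65 to -0.32 for PPDK in the submerged genotype pair, -0.50 to -0.16 for PPDK in the dark pair, and -0.34 to -0.18 for TPI and -0.72 to -0.37 for PPDK in ago1-27_submerged against WT_dark. The TPI call in the submerged pair was lost without WT_submerged replicate 2 or 3 or ago1-27_submerged replicate 1 or 2. PPDK was called in that pair without WT_dark replicate 1, WT_dark replicate 2 or ago1-27_submerged replicate 2, and in the dark pair without WT_dark replicate 1. Its call in ago1-27_submerged against WT_dark was lost without WT_dark replicate 2 or 3 or ago1-27_submerged replicate 1 or 3. For the interaction the ranges were -0.20 to 0.66 for AT4G17260, -0.029 to 0.051 for GAPC2 and -0.34 to 0.012 for PPDK. Over all probe sets, submergence called 1048 in WT, against 431 with 6 arrays, 3872 without both arrays that lay apart and 322 to 2506 with 1 array left out, and 1241 in ago1-27, against 346 to 1862. The interaction called 42, against 14 with median centring, 26 with no trend, 78 with a filter at the 60th percentile, 83 with the floor, 1200 without both arrays and 5 to 726 with 1 array left out. Why these counts moved was not tested. Each member has 1 probe set of its own, so no other probe set could be tried.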

Other observations

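Genes next to fermentation, which use pyruvate in mitochondria, were also read. Of 30 genes of the mitochondrial pyruvate dehydrogenase and citric acid cycle list, 12 have a probe set of their own, and all 12 were tested. In ago1-27_submerged against WT_submerged 3 were called higher and 4 lower, and in ago1-27_dark against WT_dark 1 higher and 5 lower (limma, adjusted p under 0.05), with medians of 0.04 and -0.32 against 0.17 and 0.17 over all probe sets. Over all probe sets the share called higher was 26.7% in the submerged pair and 32.1% in the dark pair, and the share called lower was 17.8% and 20.8%. Without both arrays that lay apart the counts were 1 higher and 4 lower in the submerged pair and 3 higher and 5 lower in the dark pair. The shares over all probe sets are those with all 12 arrays. Subunits of pyruvate dehydrogenase, the entry of pyruvate into the cycle, were lower: the E1 beta subunit MAB1 was at -0.55 and -0.78 on the log2 scale in the submerged and the dark pair, and the E2 subunit AT3G13930 at -0.65 and -1.41. Another E2 subunit, AT1G54220, was higher in the submerged pair at 0.60 and not called in the dark pair at 0.48. Genes of later steps were called lower in both pairs too. They were the succinyl-CoA ligase subunit AT5G08300 (-0.60 and -1.11) and the isocitrate dehydrogenase subunit IDH-V (-0.45 and -0.72). SDH2-2, an iron-sulfur subunit of succinate dehydrogenase, was higher in both, at 1.48 and 1.65. With submergence 2 of 12 were called higher in ago1-27, AT3G13930 at 0.75 and AT2G20420, a succinyl-CoA ligase subunit, at 0.54, and 1 was called lower in WT, the isocitrate dehydrogenase subunit IDH-V at -0.47. Of all probe sets 4.19% were called higher in ago1-27. In WT 7.08% were called in either direction, of which the larger part, 4.71% of all probe sets, was higher. With median centring 0 of 12 were called higher in ago1-27, and without both arrays that lay apart 1 of 12 was, against 2 higher and 3 lower in WT. In WT 3872 of the 14812 probe sets were called in either direction without both arrays, against 1048 with all 12.

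Of 23 sucrose and starch breakdown genes only 3 are named alone. AMY1, an alpha-amylase, lay under the low-signal limit on 9 of the 12 arrays, so no fold is given: it averaged 91.8 ± 46.1 in ago1-27_submerged, 95.9 ± 19.0 in ago1-27_dark, 34.9 ± 1.06 in WT_submerged and 24.6 ± 6.88 in WT_dark. PWD, which phosphorylates starch, fell by 0.97 on the log2 scale with submergence in ago1-27 (limma, adjusted p = 0.0012) and was at -0.20 in WT (adjusted p = 0.38). The difference between the genotypes was -0.77 and was not called (adjusted p = 0.081). DPE1, a plastid glucanotransferase, was lower in the submerged pair (-0.53) and not called in the dark pair (-0.31). The only named plastid glycolysis gene, AT1G56190, was called in none of the 6 pairs.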
